A study of Mus musculus with 8 samples.

Results

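The growth hormone and insulin-like growth factor (IGF) axis was followed in the liver through 9 genes: the receptor gene Ghr, its signal transducer Stat5b, the feedback gene Cish, the growth hormone repressed transcription factor gene Bcl6, the hormone gene Igf1, and the IGF carrier genes Igfals, Igfbp1, Igfbp2 and Igfbp4. They were chosen by symbol from a list of 10, and the table of 16492 tested probe sets held 1 probe set for each of the 9, among 16253 genes with a name. The listed Socs2 was not analysed here. The livers came from male C57BL/6 mice aged 3 to 3.5 months, 4 of genotype Amacr-/- and 4 wild-type, each on 1 array. Per the labels the 4 arrays of a genotype are biological replicates. The product of Amacr is a racemase that turns the methyl-branched side chains of bile acid precursors and phytol-derived fatty acids into the form that peroxisomes can shorten. No source used here gave the hour of sampling, the feeding state or how the knockout allele was made.

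Growth hormone from the pituitary binds its receptor on hepatocytes, the kinase JAK2 phosphorylates STAT5B, and STAT5B enters the nucleus and drives Igf1, Igfals and the feedback inhibitors of the SOCS family. In male rodents the hormone arrives in pulses, so that STAT5 activity in liver rises and falls through the day, and genes such as Cish and Bcl6 follow these swings in opposite directions. IGF-1 leaves the liver bound to carrier proteins, in large part in a complex with IGFBP3 and the acid-labile subunit made from Igfals, while Igfbp1 is raised by fasting and lowered by insulin.

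The DNA letters that STAT5 and insulin-regulated factors are known to favour are shown first, since they mark which of the 9 genes carry such letters beside a transcription start. RefSeq windows of GRCm38.p6, reaching from 250 bases before to 50 after a start, were found for all 9 genes, 15 windows in all. The palindrome TTCNNNGAA, the core of STAT5 sites, was searched in them, and it reads the same pattern on both strands. It stood in windows of 3 of the 9 genes. For Cish (chr9:107296654-107296683, + strand) 2 copies lay side by side at the start, and 0.457% of all 32851 windows held at least 2. Bcl6 has 2 annotated starts on the - strand, with 1 copy in the window of the upstream start (chr16:23988947-23988985) and 3 copies in that of the downstream start (chr16:23981348-23981466). At least 3 copies were found in 11 windows, or 0.0335% of all. Igfals, on the + strand, had 1 copy in each of 2 windows (chr17:24877594-24877631 and chr17:24878158-24878196), against 8.3% of all windows with at least 1. CAAAACA, part of the insulin response sequence known from Igfbp1, was searched on both strands and found in the window of Igfbp1 alone among the 9 genes (chr11:7197664-7197700, + strand), against 6.28% of all windows. None of the matches was found to overlap another match of the same letters. In the stretches below, capitals mark these letters.
Cish: cagttTTCCTGGAAagTTCTTGGAAatctg
Bcl6 upstream start: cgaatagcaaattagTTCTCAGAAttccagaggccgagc
Bcl6 downstream start: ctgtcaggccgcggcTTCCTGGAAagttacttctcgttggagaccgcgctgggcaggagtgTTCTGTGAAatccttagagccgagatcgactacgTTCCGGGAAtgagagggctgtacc
Igfals first start: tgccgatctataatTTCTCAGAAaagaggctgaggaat
Igfals second start: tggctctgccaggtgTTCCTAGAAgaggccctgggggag
Igfbp1: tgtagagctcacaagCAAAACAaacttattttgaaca

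Amacr was at 5.47, 5.39, 5.52 and 5.23 in Amacr-/- replicates 1 to 4, against 12.03, 12.05, 12.06 and 11.68 in wild-type replicates 1 to 4, on the log2 scale of the deposited signals, as the labels of all 8 arrays give it. Hepatocyte markers such as Alb and Ttr differed little, with a median difference of -0.04 over 8 measured markers. Means in Amacr-/- were lower for all 8, by -0.18 at most, where 56.05% of all probe sets had higher means. The groups did not overlap for 1 of the 8, on the lower side, beside 3.25% of all probe sets. Of all probe sets, 19 passed an adjusted p of 0.05 in limma, 0.115% of those tested. Knockout replicate 2 stood apart: its array quality weight was 0.2998, against 0.9349 to 1.753 for the other arrays, and it held the lowest value of all arrays for 24.47% of probe sets. Knockout replicate 1, the array with the highest Stat5b, Cish and Igfbp2, had the highest value for 6 of 7 exocrine pancreas markers, with their median 2.23 above the wild-type mean on the log2 scale. The mean signal of these markers ranged from 5.84 to 7.98 in Amacr-/- arrays and 6.01 to 6.20 in wild-type arrays, and the part of these cells in the values of that array was not tested. Without it the differences were 0.17 for Stat5b, -0.45 for Cish and 0.06 for Igfbp2. Fewer cells of a type and less RNA per cell cannot be told apart in these tissue samples.

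None of the 9 genes passed the adjusted threshold in limma. There were 0 called higher, beside 0.0728% of all probe sets, and 0 called lower, beside 0.0424%, and the smallest adjusted p was 0.374, for Stat5b. At an unadjusted p under 0.05 there were 2 of the 9, beside 11.3% of all probe sets. They were Stat5b, with the higher mean in Amacr-/- (5.66% of all probe sets), and Igfals, with the lower (5.63%). The groups did not overlap for 1 of the 9, Stat5b, beside 6.67% of all probe sets, and no gene of the 9 lay apart on the lower side (3.25% of all). The mean was higher in Amacr-/- for 3 of the genes and lower for 6, where 56.05% of all probe sets had higher means. Their median difference was -0.20 on the log2 scale, beside 0.02 over all probe sets.

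**Figure D1:**
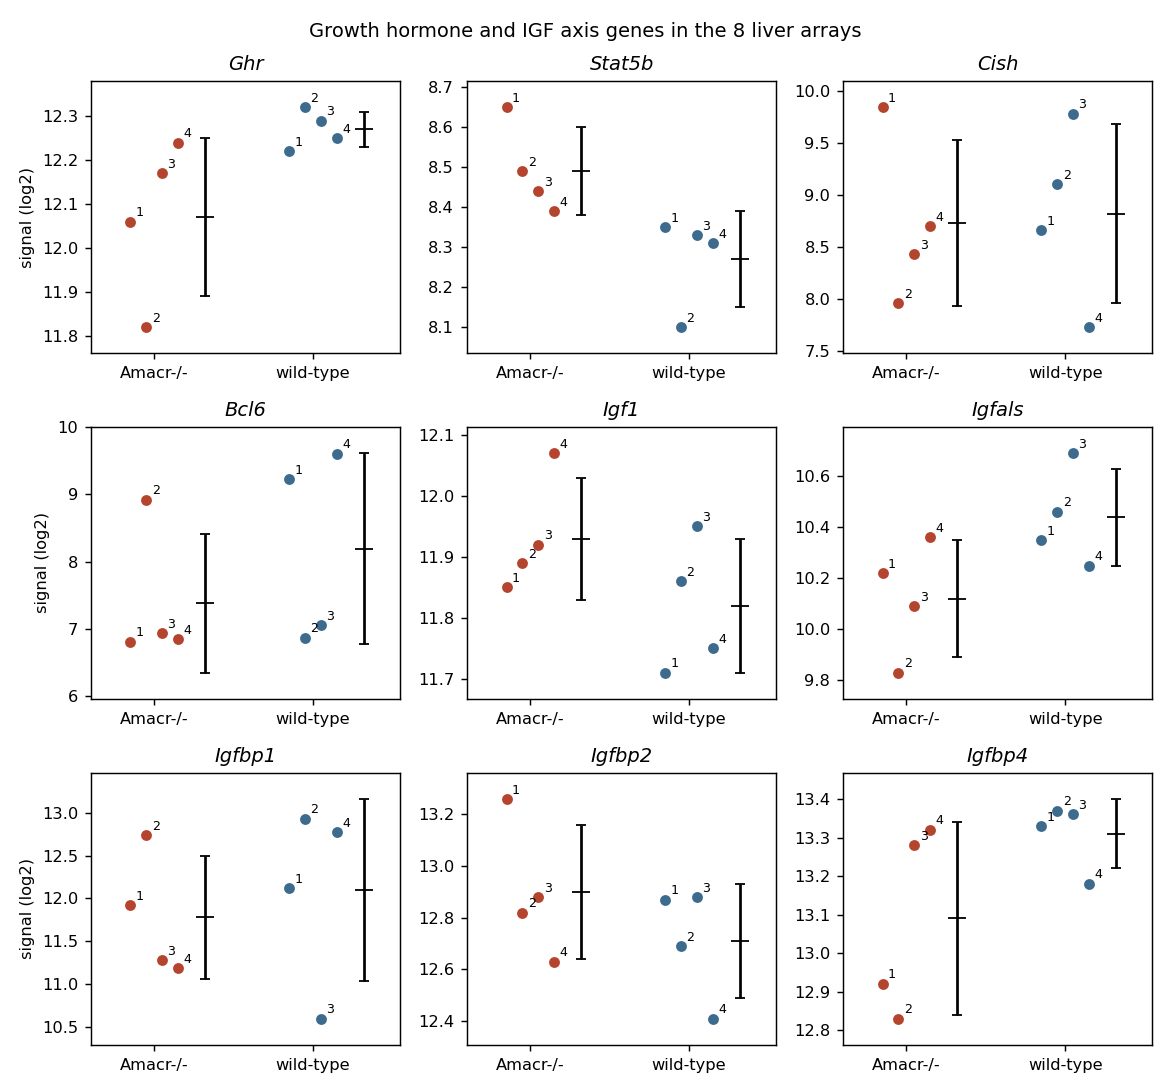
Signal (log2) of the 9 genes in each array, Amacr-/- left and wild-type right, with replicate numbers beside the points and the mean ± SD in black; each panel has its own scale. Stat5b is the gene whose groups do not overlap, and Bcl6 falls into values from 6.81 to 7.06 and from 8.92 to 9.60 in both genotypes.

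Ghr, the receptor, had signals of 12.06, 11.82, 12.17 and 12.24 in Amacr-/- livers, against 12.22, 12.32, 12.29 and 12.25 in wild-type livers. Wild-type livers kept within 0.10 of each other, Amacr-/- livers spread over 0.42, and replicate 4 of Amacr-/- lay inside the wild-type range while the other 3 lay below it. The means were 12.07 ± 0.18 in Amacr-/- and 12.27 ± 0.04 in wild type (SD, n = 4 each), so the log2 difference was -0.20 (SE 0.09, limma adjusted p = 0.468; exact two-sided permutation p = 0.0571). The 95% interval, -0.41 to 0.01, corresponds to signals between 0.754 and 1.01 times those of wild type. Without knockout replicate 2, which had the lowest Ghr signal, the difference was -0.11. Ghr lies on chromosome 15, as Amacr does, with 43 protein-coding genes between them in the RefSeq annotation. Of these genes 35 were measured, and 0 passed the adjusted threshold in limma, beside 0.115% of all probe sets. At an unadjusted p under 0.05 there were 2 of the 35, beside 11.3% of all probe sets.

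Stat5b, the transcription factor that carries the receptor's signal to the nucleus, read 8.65, 8.49, 8.44 and 8.39 in Amacr-/- livers and 8.35, 8.10, 8.33 and 8.31 in wild-type livers. Every Amacr-/- liver was above every wild-type liver, although the nearest pair, 8.39 and 8.35, was only a few hundredths apart. The mean was 8.49 ± 0.11 in Amacr-/- and 8.27 ± 0.12 in wild type (SD, n = 4 each), so the log2 difference was 0.22 (SE 0.08, 95% interval 0.03 to 0.41), or 1.17-fold in signal. That did not pass after adjustment over all probe sets (limma adjusted p = 0.374), and its exact permutation p of 0.0286 is the smallest that 4 arrays against 4 can give. Across all probe sets the groups were apart in this direction for 3.42%. Without wild-type replicate 2, the lowest array, the difference was 0.16.

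The rest of the receptor's signalling list moved as little. Of 17 measured genes of receptor and JAK-STAT signalling, Ghr and Stat5b included, 0 passed in either direction, with 1 gene on the higher and 1 on the lower side at an unadjusted p under 0.05 (5.66% and 5.63% of all probe sets), and the median difference was 0.00. Jak2, the receptor's kinase, averaged 7.62 ± 0.10 in Amacr-/- and 7.60 ± 0.10 in wild type (SD, n = 4 each). For Stat5a, the close relative of Stat5b, the log2 difference was 0.10 (SE 0.16). Prlr, the receptor for the related hormone prolactin, had a lower mean in Amacr-/- at -0.48 on the log2 scale (SE 0.23, limma adjusted p = 0.471). Like Ghr, it lies on chromosome 15, as Amacr does, and the part of that position in its values was not tested.

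**Figure D2:**
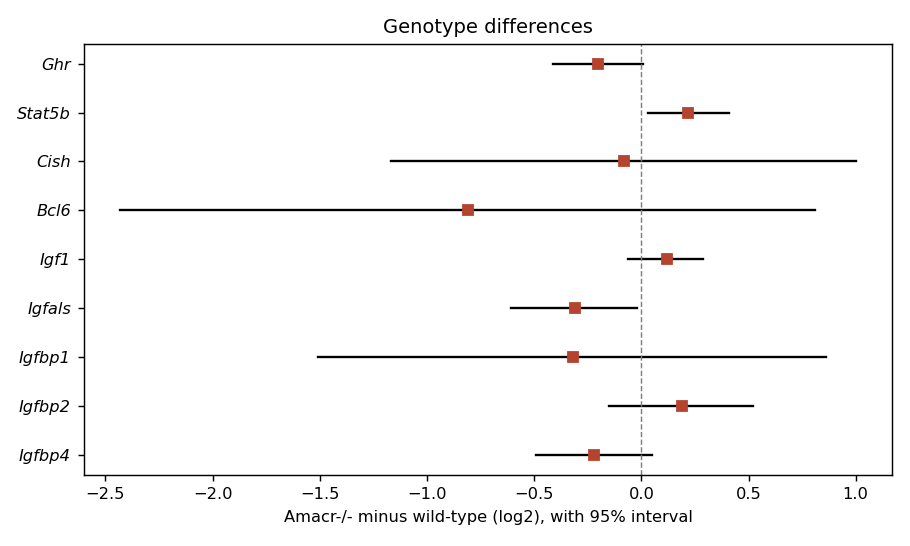
Difference of Amacr-/- minus wild-type (log2, squares) with its 95% interval from limma (lines) for the 9 genes. The intervals of Stat5b (0.03 to 0.41) and Igfals (-0.61 to -0.02) leave out 0 before any adjustment, and those of Bcl6, Igfbp1 and Cish are the widest of the 9.

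Cish encodes a feedback inhibitor that STAT5 induces and that acts back on the receptor. It read 9.84, 7.96, 8.43 and 8.70 in Amacr-/- livers, against 8.66, 9.10, 9.78 and 7.73 in wild-type livers. High and low values occurred in both genotypes, and the groups overlapped over nearly their whole range. The means of 8.73 ± 0.80 and 8.82 ± 0.86 (SD, n = 4 each) in Amacr-/- and wild type differed by -0.08 (SE 0.48, limma adjusted p = 0.956). Its sign was positive without knockout replicate 2 or 3 (0.17 and 0.02) and without wild-type replicate 2 or 3 (0.01 and 0.24). The 95% interval, -1.17 to 1.00, covers a doubling of the signal, 2.00 times, and a fall to 0.444 times it.

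Bcl6, a repressor that growth hormone keeps low in liver, showed the widest spread. Its signal was 6.81, 8.92, 6.94 and 6.85 in Amacr-/- livers, against 9.22, 6.87, 7.06 and 9.60 in wild-type livers. In 5 arrays of both genotypes it lay from 6.81 to 7.06, and in 3, knockout replicate 2 and wild-type replicates 1 and 4, from 8.92 to 9.60, with a gap of 1.86 between them. Over the 8 livers it spanned 2.79 on the log2 scale, 6.92-fold. The genotype means, 7.38 ± 1.03 in Amacr-/- and 8.19 ± 1.42 in wild type (SD, n = 4 each), differed by -0.81 (SE 0.72, limma adjusted p = 0.700), less than the SD within either group. Without wild-type replicate 4 the difference was -0.34, without wild-type replicate 1 it was -0.46, and without knockout replicate 2 it was -1.32.

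Of the 9 genes, Bcl6, Igfbp1 and Cish had a wide spread within each genotype. The pooled within-genotype SD of Bcl6 was 1.24, and 0.188% of all probe sets, 31 in number, had one as large. For Igfbp1 it was 0.91 and for Cish 0.83, reached by 0.558% and 0.776% of probe sets, beside a median of 0.14 over all of them. The other 6 genes had SDs from 0.10 (Igf1) to 0.24 (Igfbp2), between percentiles 28.4 and 86.1 of all probe sets.

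**Figure D3:**
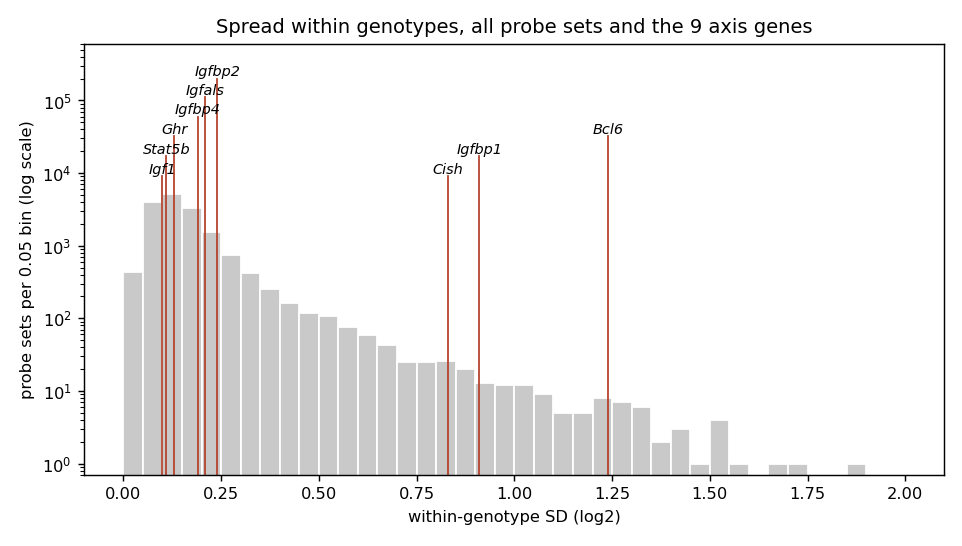
Number of probe sets (log scale) by their within-genotype SD (log2, bins of 0.05), with red lines at the SDs of the 9 genes. Cish, Igfbp1 and Bcl6, at 0.83, 0.91 and 1.24, lie in the far right tail, while Igf1, Stat5b and Ghr lie in the bulk.

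The arrays with high Bcl6 were set beside those of other genes under growth hormone control, a comparison chosen after the values were seen and given as a description. Onecut1, a hepatic transcription factor (HNF6) that growth hormone raises through STAT5, read 8.90, 7.50, 8.02 and 8.45 in Amacr-/- livers and 7.80, 9.73, 9.81 and 7.13 in wild-type livers. Its 3 lowest arrays were the same 3 that were high for Bcl6, as held for 3.24% of all probe sets. The 5 arrays lowest for Cish were also the 5 lowest for Onecut1, as held for 0.976% of probe sets. Wild-type replicate 4 and knockout replicate 2 had the lowest Cish, 7.73 and 7.96, while wild-type replicate 1, with Bcl6 at 9.22, had Cish at 8.66, above knockout replicate 3 at 8.43. The genotype difference of Onecut1 was -0.40 (SE 0.61, limma adjusted p = 0.838).

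**Figure D4:**
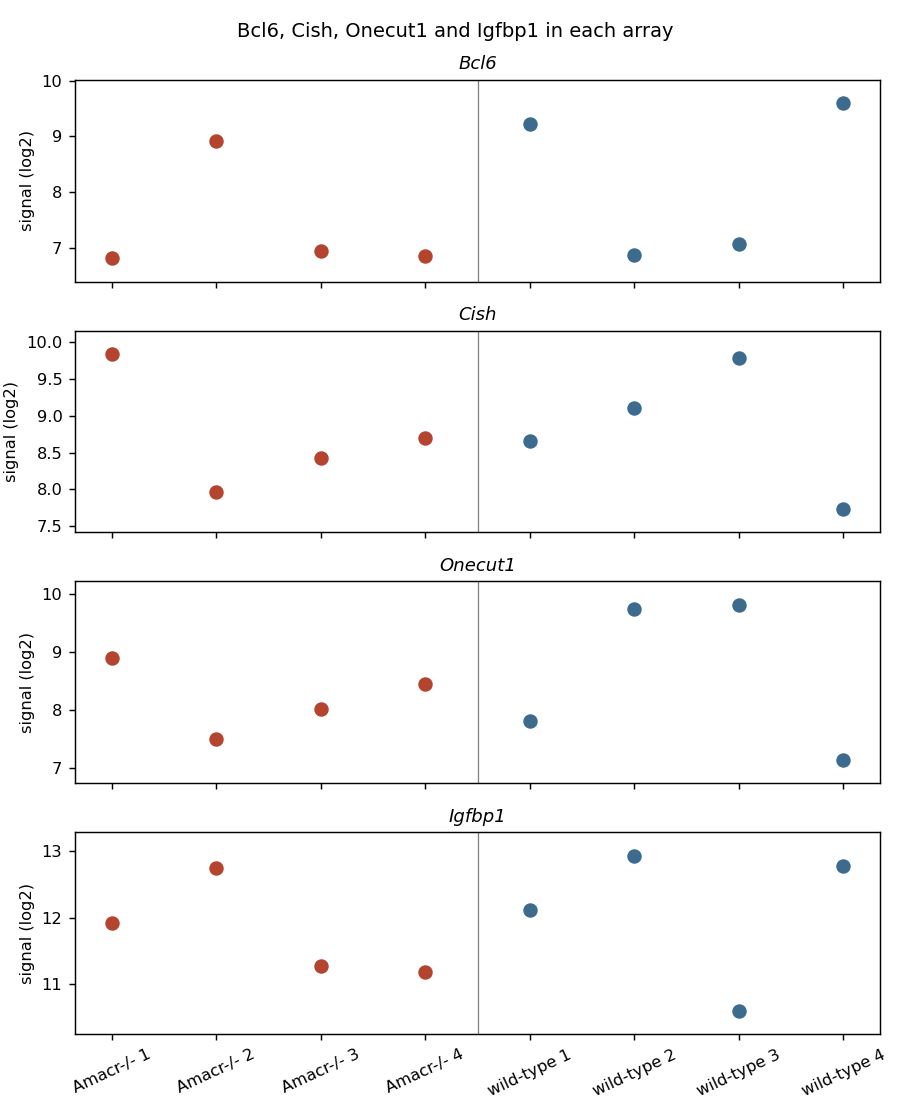
Signal (log2) of Bcl6, Cish, Onecut1 and Igfbp1 in each array, Amacr-/- in red on the left and wild-type in blue on the right, each panel on its own scale. Knockout replicate 2 and wild-type replicates 1 and 4 are high for Bcl6 and hold the 3 lowest Onecut1 values.

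Other feedback genes and hormone-regulated factors gave no call. Of 13 measured genes of the SOCS family and phosphatases, 0 passed, beside 0.115% of all probe sets. An unadjusted p under 0.05 was reached by 0 of them, beside 11.3%, and the median difference was -0.08. Socs3, an inhibitor induced above all by cytokines, ranged from 6.77 to 8.86 in Amacr-/- and from 7.43 to 8.75 in wild type. Of 12 growth hormone regulated transcription factors, 0 passed, and the median difference was -0.18. At an unadjusted p under 0.05 there were 0 on the higher and 1 on the lower side, beside 5.66% and 5.63% of all probe sets. Means in Amacr-/- were lower for 11 of the 12, where 56.05% of all probe sets had higher means. Against the wild-type mean, the list's medians were -0.22, -0.48, -0.02 and -0.05 in knockout replicates 1 to 4. In the wild-type arrays they ran from -0.09 to 0.04. Knockout replicate 2 held the lowest value for 8 of the 12, where it did so for 24.47% of all probe sets. Cux2, a repressor found mainly in female liver, averaged 5.42 ± 0.21 in Amacr-/- and 5.43 ± 0.09 in wild type (SD, n = 4 each). Its signals were low, as Amacr itself read 5.23 to 5.52 in Amacr-/- livers.

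Igf1, the hormone made by the liver, was the steadiest of the 9. Its signal was 11.85, 11.89, 11.92 and 12.07 in Amacr-/- livers, against 11.71, 11.86, 11.95 and 11.75 in wild-type livers. All 4 Amacr-/- values lay above the wild-type mean, but 2 wild-type values, 11.86 and 11.95, lay among them. The means of 11.93 ± 0.10 in Amacr-/- and 11.82 ± 0.11 in wild type (SD, n = 4 each) differed by 0.12 on the log2 scale (SE 0.08, limma adjusted p = 0.612; exact permutation p = 0.229). The 95% interval runs from 0.957 to 1.23 times the wild-type signal. The difference was 0.07 without knockout replicate 4, the highest array, and 0.08 without wild-type replicate 1, the lowest.

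Igfals, whose product holds IGF-1 in the large circulating complex, read 10.22, 9.83, 10.09 and 10.36 in Amacr-/- livers and 10.35, 10.46, 10.69 and 10.25 in wild-type livers. Only replicate 4 of the Amacr-/- livers entered the wild-type range, above wild-type replicates 1 and 4. The mean was 10.12 ± 0.23 in Amacr-/- and 10.44 ± 0.19 in wild type (SD, n = 4 each), so the log2 difference was -0.31 (SE 0.13, 95% interval -0.61 to -0.02), or 0.805 times the wild-type signal. The unadjusted p was 0.0403, the limma adjusted p 0.416 and the exact permutation p 0.0857. Without knockout replicate 2, lowest here as for Ghr, the difference was -0.21.

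Igfbp3, which forms the large complex with IGF-1 and the Igfals product, was measured as a gene of the wider list and is named after its values were seen. It read 8.13, 8.93, 8.87 and 8.30 in Amacr-/- livers, against 7.56, 8.09, 7.80 and 8.23 in wild-type livers. The log2 difference was 0.64 (SE 0.21, limma adjusted p = 0.313), with 1 wild-type array, replicate 4, above the lowest Amacr-/- array. In rodent liver Igfbp3 is known to come mostly from cells other than hepatocytes. Markers of Kupffer cells had lower means in Amacr-/- for 12 of 12 genes, but the groups overlapped for each. Knockout replicate 4 held the lowest value for 11 of them and wild-type replicate 4 the highest for 9. Against the wild-type mean, their medians were 0.16, 0.00, -0.61 and -1.02 in knockout replicates 1 to 4. They were 0.01, -0.47, 0.04 and 0.42 in wild-type replicates 1 to 4. The mean signal of the list ran from 8.06 to 9.21 in Amacr-/- arrays and 8.56 to 9.50 in wild-type arrays. The mean over 12 stellate cell and fibroblast markers ranged from 7.66 to 8.39 in Amacr-/- arrays and 7.78 to 7.90 in wild-type arrays. For 12 sinusoidal endothelial markers the median difference was -0.04. The part of these cells in the Igfbp3 values was not tested.

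Igfbp1, a carrier whose gene answers to fasting and insulin, varied about as much as Cish. It read 11.92, 12.74, 11.28 and 11.19 in Amacr-/- livers, against 12.12, 12.93, 10.60 and 12.77 in wild-type livers. The highest and the lowest of the 8 were both wild-type, replicates 2 and 3, and they differed 5.03-fold. Means of 11.78 ± 0.72 in Amacr-/- and 12.10 ± 1.06 in wild type (SD, n = 4 each) differed by -0.32 on the log2 scale (SE 0.52, limma adjusted p = 0.847). Without wild-type replicate 3, the lowest array, it was -0.82, with a limma adjusted p of 0.562, and without wild-type replicate 2 it was -0.05.

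Of 22 measured genes of insulin and FoxO control, 0 passed in either direction, with 0 on the higher and 4 on the lower side at p under 0.05 before adjustment, beside 5.66% and 5.63% of all probe sets, and a median difference of -0.06. The groups did not overlap for 4 of the 22, beside 6.67% of all probe sets. Akt1, a kinase of insulin signalling, read 8.18, 8.37, 8.10 and 8.22 in Amacr-/- livers, all below the wild-type values of 8.66, 8.62, 8.71 and 8.48 (log2 difference -0.40, SE 0.08, limma adjusted p = 0.116). The sterol and insulin responsive factor Srebf1 (-0.76) and the glucose-6-phosphatase gene G6pc (-0.66) also had lower values in every Amacr-/- liver, with limma adjusted p of 0.173 and 0.272. For G6pc the nearest values were 11.87 in Amacr-/- and 11.91 in wild type. Foxo3, a FoxO factor, read 4.95, 4.97, 5.26 and 5.74 in Amacr-/- livers, all above the wild-type values of 4.84 to 4.90. These signals were low, as Amacr itself read 5.23 to 5.52 in Amacr-/- livers. The mean log2 difference of Foxo3 was 0.35 (SE 0.16, limma adjusted p = 0.450), and 0.18 without knockout replicate 4, its highest array. Foxo1, the main FoxO factor of liver, differed by -0.24 (SE 0.15).

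Igfbp2, a carrier made in quantity by liver, read 13.26, 12.82, 12.88 and 12.63 in Amacr-/- livers and 12.87, 12.69, 12.88 and 12.41 in wild-type livers. Values of both genotypes were interleaved, with the highest array in Amacr-/- and the lowest in wild type. The means of 12.90 ± 0.26 and 12.71 ± 0.22 (SD, n = 4 each) in Amacr-/- and wild type differed by 0.19 (SE 0.15, limma adjusted p = 0.669), by 0.06 without knockout replicate 1 and by 0.08 without wild-type replicate 4.

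Igfbp4, a carrier that holds IGF away from its receptor, read 12.92, 12.83, 13.28 and 13.32 in Amacr-/- livers, against 13.33, 13.37, 13.36 and 13.18 in wild-type livers. Replicates 1 and 2 of Amacr-/- lay below every wild-type array, and replicates 3 and 4 lay inside the wild-type range. The log2 difference was -0.22 (SE 0.12, 95% interval -0.49 to 0.05, limma adjusted p = 0.518), with means of 13.09 ± 0.25 in Amacr-/- and 13.31 ± 0.09 in wild type (SD, n = 4 each). Without knockout replicate 2 it was -0.14.

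Among 20 measured IGFs, receptors, carriers and carrier-cleaving proteins, Igf1 and the 4 carriers above included, 0 passed the adjusted threshold. At an unadjusted p under 0.05 there were 1 on the higher and 1 on the lower side, beside 5.66% and 5.63% of all probe sets. In Amacr-/- 16 had higher and 4 lower means, where 56.05% of all probe sets had higher means. The median difference was 0.09, beside 0.02 over all probe sets. Some signals were low: Pappa averaged 4.58 in Amacr-/- and 4.43 in wild type, Igf2bp3 3.93 and 3.84, and Igf1r 5.34 and 5.30. Amacr itself read 5.23 to 5.52 in Amacr-/- livers. The 4 with lower means were Igfals, Igfbp1, Igfbp4 and Igf2bp2, an RNA-binding protein gene of the list. The insulin receptor gene Insr differed by 0.18 (SE 0.09, limma adjusted p = 0.489), the IGF-1 receptor gene Igf1r by 0.04 (SE 0.06), and Igf2, a fetal growth factor, by 0.12 (SE 0.09).

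Sex-biased liver genes depend on the pulsed male pattern of growth hormone and were followed as outputs of the axis. Of 18 measured male-biased genes, 1 passed in limma, higher in Amacr-/-, and 0 lower, beside 0.115% of all probe sets, and the median difference was -0.11. That gene was Elovl3, a fatty acid chain elongase, at 12.04, 11.83, 11.89 and 11.72 in Amacr-/- livers, against 10.02, 10.93, 10.42 and 10.79 in wild-type livers. Every Amacr-/- value exceeded every wild-type value (log2 difference 1.33, SE 0.18, limma adjusted p = 0.0457), and the call was lost without any 1 of the 8 arrays, with adjusted p from 0.0537 to 0.150.

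The groups did not overlap for 4 of the 18 male-biased genes, Elovl3 included, beside 6.67% of all probe sets. At an unadjusted p under 0.05 there were 3 on the higher and 2 on the lower side, beside 5.66% and 5.63%. Of the other male-biased genes, Cyp4a12a, a fatty acid hydroxylase, was higher in each Amacr-/- liver (log2 difference 0.79, SE 0.17, limma adjusted p = 0.136). Nudt7, a peroxisomal hydrolase, was lower in each (-0.46, SE 0.09, limma adjusted p = 0.116). Mup3, of the major urinary proteins, was lower in each by a mean of -0.39 (SE 0.21, limma adjusted p = 0.518), but the nearest pair read 14.33 and 14.34. Without knockout replicate 2, which read 13.25 against 14.19 to 14.33 in the other Amacr-/- arrays, the difference was -0.14. The Cyp4a12 and Mup families hold near-identical copies, so their probe sets may read more than 1 gene. Moxd1 reached 10.49 and 8.17 in knockout replicates 3 and 4, against 5.43 and 4.06 in knockout replicates 1 and 2 and 3.68 to 4.17 in wild type.

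Knockout replicate 2, the liver with the lowest Ghr and Igfals signals, held the lowest value of all 8 arrays for 10 of the 18 male-biased genes, where it did so for 24.47% of all probe sets. Hsd3b5, a steroid dehydrogenase of male liver, was at 9.34 in that array, against 11.76 to 12.34 in the other Amacr-/- arrays and 12.29 to 13.00 in wild type. For Slco1a1, an organic anion transporter, the value was 9.26, against 10.84 to 11.54 in the other Amacr-/- arrays and 11.46 to 11.70 in wild type. Serpina12, the gene of the serpin vaspin, was at 7.48 there, against 9.52 to 10.16 in the other Amacr-/- arrays and 9.53 to 10.72 in wild type. In the same array 7 of 12 stellate cell and fibroblast markers and 5 of 8 cholangiocyte markers had their highest value, beside 16.65% of all probe sets. The part of these cells in the low values was not tested.

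Female-biased genes gave 0 calls among 21 measured, with 1 on the higher and 3 on the lower side at p under 0.05 before adjustment, beside 5.66% and 5.63% of all probe sets, and a median difference of 0.15. Cyp2b10, a P450 also induced by xenobiotics, was higher in each Amacr-/- liver, at 5.39, 6.10, 7.34 and 6.01, against 4.89, 4.74, 4.89 and 4.94 in wild-type livers (log2 difference 1.34, SE 0.34, limma adjusted p = 0.179). The wild-type values of Cyp2b10 were low, below Amacr in Amacr-/- livers (5.23 to 5.52). Fmo2, a flavin monooxygenase, was lower in each Amacr-/- liver (-0.54, SE 0.12, limma adjusted p = 0.144). Cyp2b10, Fmo2 and Cyp2b13 were the 3 of 21 genes whose groups did not overlap, beside 6.67% of all probe sets. Cyp2b13, a P450 of female liver, was higher in each Amacr-/- liver by a mean of 0.18 (SE 0.08, limma adjusted p = 0.445). Its signals were low, 4.79 to 5.07 in Amacr-/- and 4.61 to 4.76 in wild-type livers, below Amacr in Amacr-/- livers (5.23 to 5.52). In knockout replicate 2 the list's median stood 0.25 above the wild-type mean, with 0.05, 0.01 and -0.04 in Amacr-/- replicates 1, 3 and 4 and -0.11 to 0.05 in the wild-type arrays. That array held the highest value for 5 of the 21 genes and the lowest for 2, beside 16.65% and 24.47% of all probe sets, and wild-type replicate 1 held the highest for 6.

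**Figure D5:**
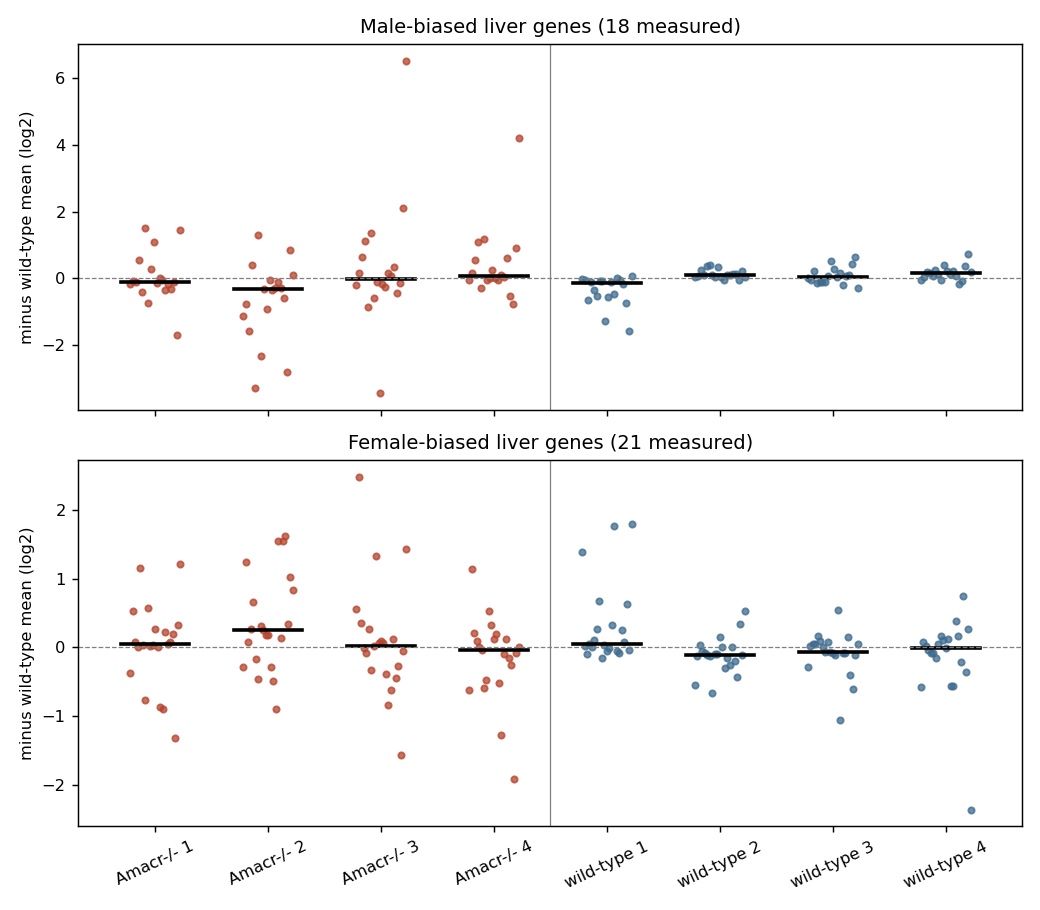
Each point is 1 gene's signal minus its wild-type mean (log2) in 1 array, for 18 male-biased (top) and 21 female-biased (bottom) liver genes, Amacr-/- arrays in red on the left and wild-type in blue on the right; black bars are medians. Knockout replicate 2 has the lowest median of the male-biased genes, -0.33, and the highest of the female-biased genes, 0.25.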

How the data were processed

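Total RNA of 8 livers was labelled with biotin and hybridised to 1 array each, 4 Amacr-/- and 4 wild-type. The authors deposited log2 values made with RMA, per the submitters' processing notes, which give no version. RMA corrects background and normalizes between arrays, so a shift of all genes one way would not be seen. The sources used here name no array type and no filter. Of 16556 rows, 64 array controls were left out. Probe set IDs are Entrez numbers: 15270 were named by GEO's platform annotation and 988 more, Ghr among them, by looking up the ID's number in the RefSeq table (GRCm38.p6); 234 stayed unnamed. The probe set with the highest mean stood for a gene.

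The comparison of genotypes used lmFit and eBayes of limma 3.58.1, run under R 4.3.3 (8 arrays, two-sided), with Benjamini-Hochberg adjustment over 16492 probe sets and a threshold of 0.05. Every adjusted p of a gene is from such a fit. Exact two-sided permutation tests over 70 splits were added for single genes. The steps were tested on simulated data, and 17 alternatives were run (scaling, filters, variance models, array weights, a replicate block, arrays left out). The number of arrays limits the precision, and the median SE was 0.09. The table held no detection calls, so background was not tested. The genes and lists were chosen with earlier results of these data known. All 9 genes were named, and from each list the genes past the threshold and up to 4 more without overlap, largest difference first, with Amacr and the 4 genes most like Igf1. Further genes are named with their values already seen. The same rule for Socs2 could not be applied.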

Additional observations from a re-analysis of the deposited data

Results flagged for a closer look

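Values that lay far from the other 3 arrays of their genotype by Dixon's test at its 95% critical value were found in 4 of 46 groups tested over 23 genes; chance flags about 1 in 20. Bcl6 in knockout replicate 2 was at 8.92, against 6.81 to 6.94 in the other Amacr-/- arrays. Stat5b in wild-type replicate 2 was at 8.10, below the other 3 wild-type arrays at 8.31 to 8.35. Mup3 in knockout replicate 2 was at 13.25, against 14.19 to 14.33 in the other Amacr-/- arrays. Amacr in wild-type replicate 4 was at 11.68, below the other 3 wild-type arrays at 12.03 to 12.06.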

How the results depend on the processing

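Of the 153 alternative values of the 9 genes, 149 kept their direction and an adjusted p above 0.05, and 4 changed sign, all of Cish with 1 array left out, where its difference ranged from -0.45 to 0.24. The number of the 9 genes called was 0 under all 17 alternatives. The number without overlap was 2 with arrays centred on their medians, 2 with knockout replicate 2 and wild-type replicate 4 both left out, and from 1 to 3 with 1 array left out, where fewer arrays make overlap rarer. Calls over all probe sets numbered 75 with array quality weights, 38 with quantile normalization on top, 43 without probe sets of a mean under 6, 39 with those 2 arrays left out, and 2 to 39 with 1 array left out; the cause was not tested. Male-biased genes called numbered 2 with array quality weights, 0 with those 2 arrays left out and 0 without any 1 array, and 1 insulin and FoxO gene, Akt1, was called with array quality weights. With the replicate number as a block, 1 probe set was called and 0 male-biased genes. Same-numbered arrays did not deviate together (r of 0.05, -0.027, 0.092 and -0.115 across probe sets), so the numbers were not taken as pairs.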

Other observations

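FGF21, a fasting hormone known to dampen growth hormone signalling in liver, was measured as an input to the axis. With it were listed Klb, the FGF receptor genes Fgfr1, Fgfr2, Fgfr3 and Fgfr4, the nuclear receptor genes Ppara and Rxra, and Sirt1. Of these 9 genes 0 passed in limma. At p under 0.05 before adjustment there were 0 on the higher and 3 on the lower side, beside 5.66% and 5.63% of all probe sets. The groups did not overlap for 2 of the 9, beside 6.67%. Fgf21 read 5.81, 7.39, 6.09 and 6.59 in Amacr-/- livers, against 5.83, 6.56, 5.60 and 5.97 in wild-type livers, highest in knockout replicate 2 (log2 difference 0.48, SE 0.33, limma adjusted p = 0.615). Klb, the co-receptor for FGF21, had a mean of 8.54 ± 0.35 in Amacr-/- and 9.01 ± 0.15 in wild type (SD, n = 4 each), so the log2 difference was -0.47 (SE 0.16, adjusted p = 0.328). Ppara, the fatty acid receptor that drives Fgf21, and its partner Rxra were lower in each Amacr-/- liver, by -0.63 (SE 0.12, limma adjusted p = 0.116) and -0.27 (SE 0.11, limma adjusted p = 0.385). For Rxra the nearest values were 9.69 in Amacr-/- and 9.71 in wild type. Ppara lies on chromosome 15, as Amacr does, and the part of that position in its values was not tested.

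By deviations from the genotype mean over 8 arrays, the genes most like Igf1 among 16252 searched were Oaz1, Cfap300, Tmem212 and Rnf148, with Pearson's r of 0.971, 0.964, 0.953 and 0.947 and Spearman's rho of 0.976, 0.929, 0.905 and 0.738. They are given as a description, as the highest of a search over 8 arrays.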
